A study of Saccharomyces cerevisiae with 177 samples.

Results

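The ribosome biogenesis genes described here are the yeast genes whose standard name is UTP, NOP, NOC, NSA, RRP, RLP or ENP followed only by digits. The rule reads the name alone, and 62 of the 5794 genes in the deposited files met it (18 UTP, 18 RRP, 17 NOP, 3 NOC, 2 NSA, 2 RLP and 2 ENP genes). They are called the members below. The series measured newly made RNA of Saccharomyces cerevisiae, labelled for 5 min with the uridine analog 4-thioU, in 177 libraries of 60 groups. Its strains lost a Mediator subunit or a general transcription factor, or carried a mutant subunit, and 1 strain was also placed under the stresses labelled HS and SM.

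Ribosome biogenesis starts in the nucleolus, where RNA polymerase I makes a long precursor that is folded, modified and cut into the mature ribosomal RNAs. UTP proteins, NOC4 and many NOP and RRP proteins build the small subunit processome on that precursor. NOC2, NOC3 and the NSA, RLP and other NOP and RRP proteins act in pre-60S particles. Further RRP genes encode the exosome, which trims and degrades RNA from its 3′ end. The messages for these factors are made by RNA polymerase II and form the Ribi regulon, one of the most growth-responsive gene groups of yeast. Mediator is the large coactivator that joins activators to RNA polymerase II. It has a head and a middle module around the scaffold subunit Med14, a tail module that includes Med15 and Med16, and a dissociable kinase module that includes Med12 and the kinase CDK8.

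All strains were MATalpha, and WT was BY4705. The 22 degron strains carried pGPD1-OSTIR, which expresses the plant F-box protein OsTIR1 from the GPD1 promoter, and an IAA7 degron on the named factor, and each was compared after 3IAA (3-indoleacetic acid, which triggers breakdown of the tagged protein) with the same strain in DMSO. An RPB3-3xFlag allele was also present in the strains labelled CCL1, CDK8, Med1, Med1_5, Med2_15, Med5, Med7, Med10, Med12, Med14, Med14C, Med15, Med16 and Med17. Med17 and Med9 carried the mini degron, and Med15_Med16 carried a degron on MED15 and a mini degron on MED16. Med1_5 carried degrons on MED1 and MED5, Med2_15 on MED2 and MED15, and Med15_Taf1 on MED15 and TAF1, a subunit of TFIID. CCL1, the cyclin subunit of TFIIH, lies outside Mediator, as does TAF1. A further strain, Med15_Spt7, carried degrons on MED15 and on SPT7, a subunit of the SAGA coactivator, and only its DMSO libraries were analysed here, in no comparison. In Med7C and Med7N the chromosomal MED7 was deleted and 2 plasmids supplied med7DN and med7DC, with the mini degron on the med7DN or the med7DC part. TID had med14DORF with the plasmids med14DTID and med14 TID-3xV5-degron, and Med14C had the MED14 degron with 2 further MED14 plasmids. The label of the Med31 libraries names a MED19 degron, as does that of Med19, though the strain numbers differ, so the tagged gene of the libraries labelled Med31 is not certain. The 6 mutants were med15del (Dgal11::HPH) and med16del (Dsin4::TRP1), compared with WT; med7N_del (only the med7DN plasmid) and Med7_EWE3, compared with Med7_WT; Med21_EWE4 with Med21_WT; and Med6_delH1 with Med6_WT. Those on plasmids all carried a deletion of the chromosomal gene and pGPD1-OSTIR. Groups had 3 libraries, replicates A, B and C, except Med7_EWE3, Med21_EWE4 and Med21_WT, which had 2. No label says that replicates were separate cultures, so p-values measure the spread between these libraries only. The libraries hold no strain without a degron after 3IAA, so effects of 3IAA itself and of factor loss cannot be told apart.

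The 106 libraries whose reads could be recovered held 2119071 to 10714175 reads, and the 15 stress libraries held 4384651 to 10032201 counts. The depth of the other 56 libraries is not known. The deleted gene was near background in the deletion strains: GAL11 (MED15) had a signal of 0.66 to 1.05 in med15del against 78.9 to 83.2 in WT, and SIN4 (MED16) had 0.13 to 0.17 in med16del against 23.5 to 25.2 in WT. A degron acts on the protein, so the RNA of the other targets checks nothing. The 4 MATalpha markers (MF(ALPHA)1, MF(ALPHA)2, STE3 and SAG1) summed to a signal of 17.9 to 3009 per library, and the 5 markers of the other mating type (MFA1, MFA2, STE2, BAR1 and AGA2) summed to 1.02 to 14.5. In the count libraries the sums were 2541 to 42592 and 53 to 374 counts. The MATalpha sum was the larger of the 2 in all 177 libraries.

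Promoters of these genes are known for 2 sequence elements, PAC and RRPE, and both were common in the members. Within the 250 bases before each start codon of the R64 genome (sacCer3), the PAC core GATGAG or its complement CTCATC occurred in 51 of 62 members (82.3%), against 16.7% of 5792 genes. The RRPE core AAAAATTT or its complement AAATTTTT occurred in 46 members (74.2%), against 13.7% of all genes. Both cores stood before 38 members (61.3%), against 5.16% of all genes, and 3 members had neither. The cores do not overlap each other by their letters, though copies of 1 core can overlap. The stretches that hold both cores are shown for 7 members that recur below, on the coding strand, with the cores in capitals.
UTP9, chrVIII:491754-491839, plus strand: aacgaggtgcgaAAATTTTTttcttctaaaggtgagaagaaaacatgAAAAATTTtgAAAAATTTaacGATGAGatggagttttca
UTP6, chrIV:1358990-1359042, minus strand: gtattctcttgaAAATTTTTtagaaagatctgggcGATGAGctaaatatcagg
RRP5, chrXIII:731257-731312, minus strand: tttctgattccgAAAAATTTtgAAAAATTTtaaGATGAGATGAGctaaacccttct
NOP1, chrIV:427114-427177, plus strand: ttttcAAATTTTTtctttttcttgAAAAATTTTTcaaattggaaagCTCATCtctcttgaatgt
NOP56, chrXII:545944-546005, plus strand: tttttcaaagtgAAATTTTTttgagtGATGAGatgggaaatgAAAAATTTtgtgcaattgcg
NOP7, chrVII:695265-695331, plus strand: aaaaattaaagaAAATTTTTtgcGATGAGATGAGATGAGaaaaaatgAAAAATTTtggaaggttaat
RLP24, chrXII:166287-166358, plus strand: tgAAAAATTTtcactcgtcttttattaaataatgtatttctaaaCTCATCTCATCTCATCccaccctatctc
NOP7 had 3 overlapping or adjoining PAC cores between 2 RRPE cores, RRP5 had 2 of each, and UTP6 had 1 of each. A match is a match of letters and says nothing of which protein binds there.

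In WT the members had a median signal of 15.9 per kb of coding length, against 6.87 per kb over the 5792 genes with a length. The order of levels per kb ran from RRP14, a pre-60S factor (88.5 ± 6.45 signal per kb, mean ± SD, n = 3), down to NOP9, a small subunit factor (6.09 ± 0.138). NOP10, the small subunit of H/ACA particles, NOP1, the methyltransferase fibrillarin of box C/D particles, and NOP16 followed RRP14 at 61.0 ± 7.51, 56.7 ± 4.59 and 56.2 ± 4.63 signal per kb, closer to each other than their spread. At the lower end UTP20 (6.30 ± 0.224) and NOP9 lay within their spread, and RRP3, RRP6 and UTP10 stood just above at 7.11 ± 0.602, 7.62 ± 0.530 and 8.73 ± 0.750. UTP23 did not reach the mean signal of 10 needed for a test in CCL1, Med14C, Med7C, Med7N and Med9, nor UTP30 in Med14 or NOP19 in med16del. In those 7 comparisons 61 members were tested, and in all others 62.

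Loss of Med14 (the Mediator scaffold), Med10, Med17, CCL1 of TFIIH, or TAF1 of TFIID with Med15 lowered every member tested. The members' median fell less than that of all genes. On the deposited scale the median change of the members on log2(signal + 1) was -1.40 in CCL1 (all genes -2.18), -1.29 in Med14 (all genes -1.96), -1.61 in Med10 (-2.13), -1.36 in Med17 (-1.66), -1.58 in Med14C (-1.79) and -2.10 in Med15_Taf1 (-2.50). All tested members were called lower at a limma adjusted p under 0.05: 61 in CCL1, where 99.8% of all genes tested were, 61 in Med14 (99.7%), 62 in Med10 (99.8%), 62 in Med17 (99.7%), 61 in Med14C (99.9%) and 62 in Med15_Taf1 (99.9%). These shares lie at the background, so the fall itself is not particular to the members. In bulk RNA, less RNA per cell and fewer cells cannot be told apart, and the basis of the authors' scaling is not given.

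**Figure D1:**
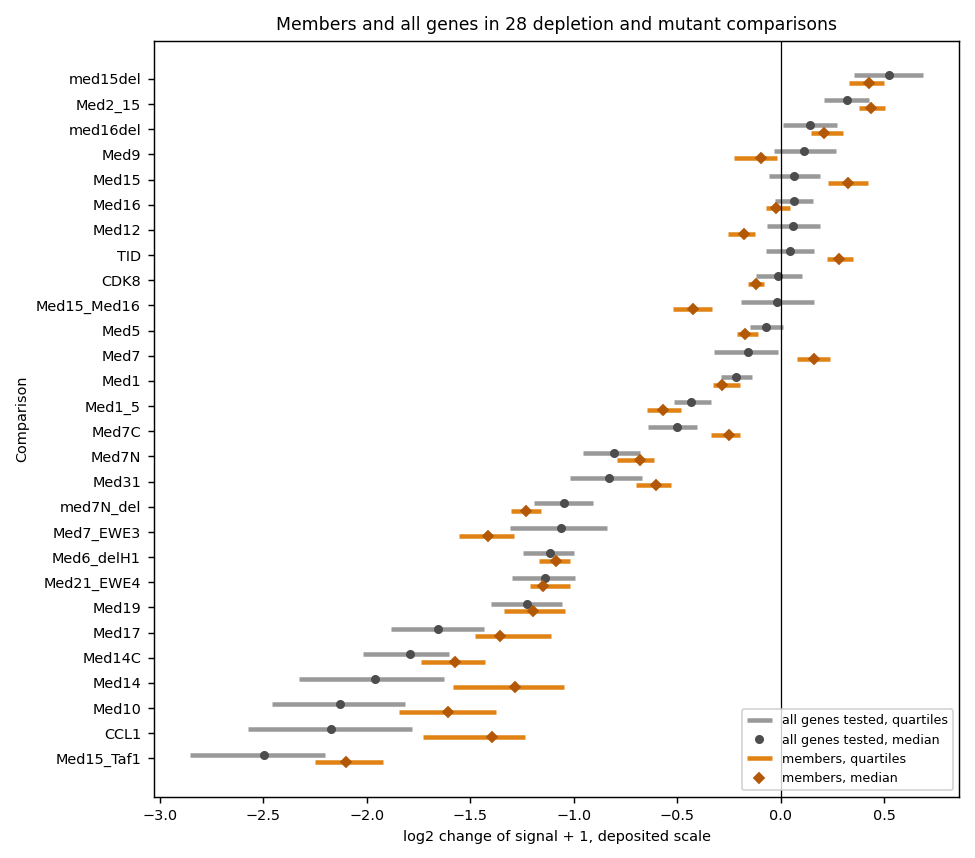
Median log2 change of signal + 1 on the deposited scale (x axis) in 28 depletion and mutant comparisons (y axis), for the members (orange) and all genes tested (grey), with bars from the lower to the upper quartile. The members lie right of the genes in CCL1 (-1.40 against -2.18) and left of them in Med15_Med16 (-0.43 against -0.02).

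UTP9, a UTP-A subunit (YHR196W, chromosome VIII, 491931 to 493658, plus strand), shows the pattern library by library. Its signal was 42.9, 48.4 and 50.3 in the DMSO libraries of CCL1 and 25.4, 26.5 and 26.5 after 3IAA. In Med10 it was 96.9, 113 and 122 before and 62.6, 61.9 and 69.3 after, and neither comparison overlapped between its groups. In Med14 the groups did overlap, with 35.2, 41.5 and 49.3 before and 36.1, 28.7 and 32.5 after. The deposited change of UTP9 was -0.83 ± 0.08 (SE; limma adjusted p = 1.6e-07) in CCL1 and -0.36 ± 0.17 (SE; limma adjusted p = 0.0427) in Med14, and the latter call was lost without DMSO B or C or without 3IAA B or C, where the change ran from -0.24 to -0.36. UTP6, of the UTP-B complex (YDR449C, chromosome IV, 1357580 to 1358902, minus strand), had 25.2, 30.1 and 34.8 and then 22.2, 22.6 and 21.5 in CCL1, a change of -0.42 ± 0.10 (SE; limma adjusted p = 0.00155). RRP43, a ring subunit of the exosome (YCR035C, chromosome III, 191834 to 193018, minus strand), fell much further. Its signal was 43.6, 46.6 and 43.3 and then 8.17, 9.14 and 9.98 in CCL1, and 99.5, 102 and 93.5 and then 16.6, 15.6 and 14.4 in Med10, with no overlap and a deposited change of -2.59 ± 0.07 (SE; limma adjusted p = 1.73e-14). NOP1 (YDL014W, chromosome IV, 427364 to 428347, plus strand) lay between them, at 112, 110 and 111 and then 27.5, 28.6 and 27.4 in CCL1, with a change of -1.96 ± 0.07 (SE; limma adjusted p = 2.03e-12).

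**Figure D2:**
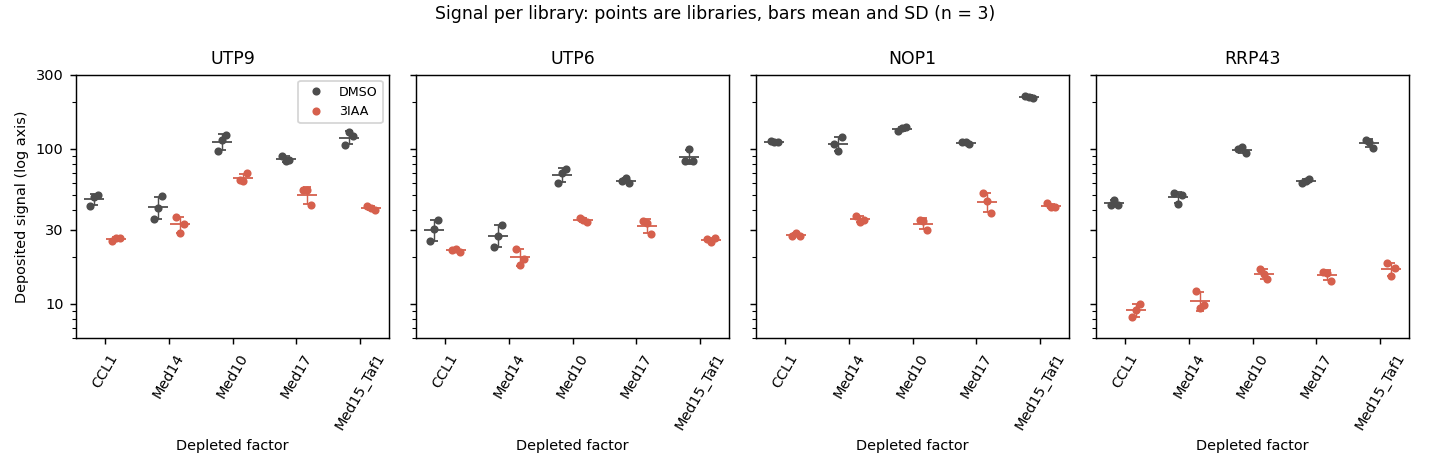
Deposited signal (y axis, log scale) of UTP9, UTP6, NOP1 and RRP43 in the DMSO (grey) and 3IAA (red) libraries of 5 degron strains (x axis), with points for libraries and bars for mean and SD (n = 3). RRP43 drops furthest, and the points of UTP9 in Med14 overlap between the treatments.

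Relative to the median gene, which sets 0 in each library, most members were higher in these depletions. In CCL1 55 of 61 tested members were called higher (median 0.76), where 36.3% of the 3927 genes tested were. In Med14 the count was 53 of 61 (median 0.70; 29.4% of 3543 genes). In Med10 it was 54 of 62 (median 0.53; 37.4% of 4455 genes), with 1 member, RRP43, called lower (34.5% of genes). Med15_Taf1 had 53 of 62 higher (median 0.45; 40.4% of 4688 genes) and 2 lower, UTP7 and NOP9 (33.4% of genes). Med17 had 41 of 62 higher (median 0.30; 25.6% of 3974 genes) and RRP43 lower (26.8% of genes). With the replicate letter as a block, 2 members were called lower in Med17. Without its DMSO C library 3 were. Med14C had 42 of 61 higher (median 0.25; 36.1% of 4220 genes), and RRP6 and RRP43 were lower (29% of genes). There the block gave 4 lower, as did leaving out 3IAA C.

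The members that gained most on the median gene were small subunit factors. In CCL1 they were UTP6 at 1.74 ± 0.11 (SE; limma adjusted p = 9.94e-07), NOC4, the small subunit partner of NOP14, at 1.41 ± 0.07 (SE; limma adjusted p = 3.54e-07), and UTP30 at 1.38 ± 0.11 (SE; limma adjusted p = 4.6e-06). In Med14 they were UTP9 at 1.63 ± 0.13 (SE; limma adjusted p = 1.99e-05), UTP6 at 1.55 ± 0.13 and UTP25 at 1.27 ± 0.12. UTP9, UTP6 and UTP15 led in Med10 at 1.38 ± 0.09, 1.20 ± 0.08 and 1.07 ± 0.06, and UTP9, UTP30 and UTP15 in Med17 at 0.89 ± 0.08, 0.81 ± 0.06 and 0.73 ± 0.07. In Med15_Taf1 the order was UTP30, UTP9 and RRP36, at 1.54 ± 0.07, 1.06 ± 0.07 and 0.96 ± 0.08. At the other end of CCL1 stood NOP10 at -0.20 ± 0.09 (SE; limma adjusted p = 0.0785), RLP7, a pre-60S factor, at -0.04 ± 0.07, and RRP43 at -0.02 ± 0.08, of which none passed the test. RRP43, NOP6 and RLP24, a pre-60S factor later exchanged for a ribosomal protein, were the 3 at the bottom of Med14 at -0.14 ± 0.08, -0.14 ± 0.12 and 0.03 ± 0.15, and likewise of Med10, at -0.45 ± 0.06, -0.03 ± 0.07 and 0.02 ± 0.07. In Med17 the bottom members were RRP43 at -0.29 ± 0.07 (SE; limma adjusted p = 0.00325), NOP6 at -0.17 ± 0.12 and NOP9 at -0.16 ± 0.10. In Med15_Taf1 they were UTP7 at -0.27 ± 0.07 (SE; limma adjusted p = 0.00443), NOP9 at -0.19 ± 0.08 (SE; limma adjusted p = 0.0354) and NOP6 at -0.13 ± 0.07. The call of NOP9 was lost without 3IAA A or B or DMSO B, where its change was -0.11 to -0.18.

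Sorted by role, the processome subcomplexes gained more than the snoRNP proteins. UTP-A, UTP-B and UTP-C are the early subcomplexes of the small subunit processome, and the box C/D and H/ACA proteins guide RNA modification and, in the U3 particle, processing. In CCL1 the median relative change was 0.86 for the UTP-A members, 1.16 for the UTP-B members, 0.75 for the UTP-C members, 0.38 for the box C/D and H/ACA members, 0.82 for the other small subunit members, 0.65 for the large subunit members and 0.39 for the exosome members. In Med14 the medians in the same order were 0.83, 1.10, 0.71, 0.39, 0.90, 0.63 and 0.61, and in Med10 they were 0.68, 0.75, 0.74, 0.24, 0.68, 0.36 and 0.34. All 6 UTP-A, 4 UTP-B and 3 UTP-C members were called higher in CCL1, Med14 and Med10. Of the 5 box C/D and H/ACA members, 4 were called higher in CCL1, 3 in Med14 and 3 in Med10. Among these 5, RRP9, the U3-specific protein, had the largest relative change in each of these 3 depletions (1.11 ± 0.07 in CCL1), while the core proteins NOP1 and NOP56 had 0.20 ± 0.06 and 0.38 ± 0.11. Roles hold 3 to 20 members each, and differences between roles were not tested.

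Further members chosen to stand for each role filled in this range. In Med14 the relative changes were 0.51 ± 0.09 for UTP4 and 0.84 ± 0.09 for UTP10 (both UTP-A), 0.59 ± 0.09 for UTP22 (UTP-C), 1.15 ± 0.08 for RRP5, which acts on both subunits, 1.05 ± 0.08 for NOP14 and 0.57 ± 0.09 for ENP1, a factor of pre-40S particles. Among large subunit factors they were 0.98 ± 0.08 for NOP7 and 0.77 ± 0.08 for NOC2, and in the exosome 0.85 ± 0.15 for the cap subunit RRP4 and 0.54 ± 0.09 for the nuclear exonuclease RRP6. RRP5 had a signal of 197, 172 and 227 in DMSO and 120, 103 and 109 after 3IAA in Med14. RLP24 had 51.4, 54.0 and 59.7 and then 17.5, 9.67 and 14.4. So the 3IAA libraries were below the DMSO libraries for both, without overlap, and the drop was larger in RLP24.

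The share of each library's total signal does not depend on the scaling, and it moved the same way. The 62 members together took 1.54% ± 0.104 (mean ± SD, n = 3) of the signal in DMSO and 2.84% ± 0.110 after 3IAA in Med14. The shares were 1.51% ± 0.094 and 2.64% ± 0.062 in CCL1, 1.64% ± 0.117 and 2.53% ± 0.084 in Med10, 1.97% ± 0.104 and 2.54% ± 0.146 in Med17, and 1.45% ± 0.104 and 1.99% ± 0.068 in Med15_Taf1. In these 5 strains no 3IAA library overlapped a DMSO library. With 3 libraries against 3, an exact permutation test cannot go below a two-sided p of 0.10, and none was made on the shares. Across all 22 DMSO groups with a treated partner the mean share ran from 1.16% (Med7N) to 1.97% (Med17). The DMSO libraries of Med15_Spt7 had 1.48% ± 0.057.

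**Figure D3:**
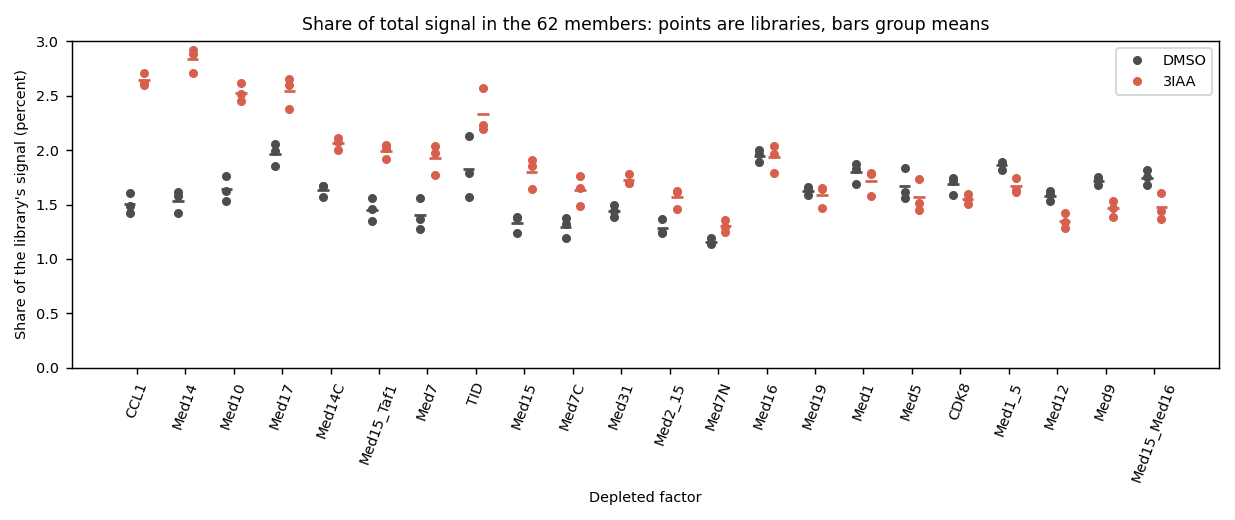
Share of each library's total signal held by the 62 members (y axis, percent) in the DMSO (grey) and 3IAA (red) libraries of 22 degron strains (x axis), with points for libraries and bars for group means. The share is higher after 3IAA in Med14 (1.54% to 2.84%) and lower in Med15_Med16 (1.75% to 1.47%).

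The scaffold and the tail were set against each other directly, as a difference of differences relative to the median gene. The change in Med14 exceeded that in Med15 for 32 of 62 members (median difference 0.48), where 16.2% of 3867 genes were called higher. UTP9 differed most at 1.32 ± 0.16 (SE; limma adjusted p = 6.24e-05), then UTP6 at 1.26 ± 0.22, and NOP6 stood at the other end at -0.52 ± 0.21 (SE; limma adjusted p = 0.0649). On the deposited scale the same difference was below 0 for all 62 members, each called lower, and Med14 loss lowered nearly all genes. Med15_Taf1 exceeded Med15 for 20 members (27.1% of 4572 genes), led by UTP30 at 1.17 ± 0.12 (SE; limma adjusted p = 2.71e-06). It was lower for 2, NOP9 at -0.45 ± 0.13 and UTP7 at -0.43 ± 0.12 (19.6% of genes). With the replicate block these counts were 30 and 7, and without 3IAA A of Med15 4 were lower. The share of all genes called with the block is not given, so 30 and 7 show no excess among the members. Without the block the share of members called higher was near the background. Med15_Taf1 lacked the RPB3-3xFlag allele that Med15 carried, so loss of TAF1 and this allele cannot be told apart in that difference. CCL1 and Med14 differed in 4 members only. UTP7 was higher in CCL1 by 0.78 ± 0.11 (SE; limma adjusted p = 0.00041) (13.7% of 3851 genes higher), and RLP7, RRP45 and UTP20 were lower by -0.53 ± 0.15, -0.41 ± 0.10 and -0.38 ± 0.10 (11.6% of genes lower). The calls higher were 4 without 3IAA A of Med14 and 2 without DMSO A of Med14 or 3IAA A of CCL1, 2 with the block, and the calls lower were 1 without 3IAA A of CCL1. The median difference of the other members was near 0 (0.02 over all 62), but a missed threshold does not show that both depletions act alike.

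After depletion of the tail subunit Med15 alone, no member was called lower. Their median was 0.33 on the deposited scale (all genes 0.07) and 0.27 relative to the median gene, and 62 of 62 members lay above the median of all genes. No member (0) passed the limma test on the deposited scale in either direction, with 20 higher at an unadjusted p under 0.05. Without DMSO A 28 were called higher on that scale, as were 458 of 4037 genes. On the relative scale 7 of 62 were called higher, where 2.5% of 4088 genes were. The replicate letters paired these libraries, and with the letter as a block 42 members were called higher, as were 484 of 4088 genes. Without 1 library the count was 11 (without 3IAA A), 2 (without 3IAA B or DMSO A) or 4 (without 3IAA C or DMSO C). ENP1 led with 42.8, 37.9 and 29.4 in DMSO and 47.0, 62.0 and 52.7 after 3IAA, which do not overlap, a relative change of 0.50 ± 0.10 (SE; limma adjusted p = 0.00739). NOP7 had 47.7, 46.2 and 44.3 and then 55.3, 76.2 and 69.1, also without overlap, with 0.46 ± 0.11 (SE; limma adjusted p = 0.0226). RRP8, a methyltransferase of large subunit rRNA, had 0.49 ± 0.13. The call of NOP7 was lost without 3IAA B or C or DMSO A, at 0.35 to 0.42, and that of RRP8 without 3IAA A or B or DMSO A or C, at 0.38 to 0.47. The smallest changes were those of the exosome genes RRP42, RRP46 and RRP43, at 0.03 ± 0.12, 0.07 ± 0.12 and 0.08 ± 0.10.

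Depletion of Med2 with Med15 gave a deposited median of 0.44 (all genes 0.32) and a relative median of 0.14. On the deposited scale 56 of 62 members were called higher, where 44.6% of 5140 genes were. That count was 24 without DMSO A, 26 without 3IAA A, 30 without 3IAA B and 34 without DMSO B. UTP30 alone was called higher relative to the median gene, at 0.47 ± 0.08 (SE; limma adjusted p = 0.00730), where 3.93% of 5140 genes were, and RRP42 was lowest at -0.12 ± 0.08. With the replicate block 18 members were called higher, without 3IAA C 8, and without DMSO B or C 2. The shares of all genes in those fits are not given. The double depletion Med15_Med16 went the other way. Its median was -0.43 on the deposited scale (all genes -0.02), and 57 of 62 members were called lower relative to the median gene (median -0.40), where 21.9% of 5085 genes were. UTP23, a small subunit factor, had 62.1, 61.2 and 55.4 in DMSO and 33.9, 36.2 and 39.3 after 3IAA, a relative change of -0.66 ± 0.09 (SE; limma adjusted p = 0.000469). NOP7 had 243, 278 and 249 and then 144, 160 and 182, at -0.63 ± 0.11. Both sets of libraries lay apart. NOP19 had the highest value, 0.05 ± 0.08 (SE; limma adjusted p = 0.616). Med15_Med16 lacked the RPB3-3xFlag allele that Med15 and Med2_15 carried, and the difference between these depletions was not tested.

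Single loss of Med16, Med5 or the TID part of Med14 gave few calls among the members without the replicate block. In Med16 the deposited median was -0.02 and the relative median -0.09, with 52 of 62 members below the median of all genes. NOP56 was called lower at -0.43 ± 0.08 (SE; limma adjusted p = 0.0186) and NOC2 at -0.35 ± 0.08 (SE; limma adjusted p = 0.0452) (3.61% of 4871 genes lower), and RRP46 was higher at 0.40 ± 0.09 (SE; limma adjusted p = 0.0357) (2.01% of genes). With the block 5 were lower and 2 higher. Without 3IAA A or B or DMSO A or B none (0) was called, and without 3IAA C 4 were lower. RRP36 had the most positive value in Med16, 0.41 ± 0.10, without a call. Without the block, the shares of members called in Med16 lay near those of all genes. In Med5 (deposited median -0.17, relative -0.10) limma called 0 members on either scale, with 21 and 4 lower at an unadjusted p under 0.05 on the deposited and the relative scale, and 0.763% of 4851 genes were called. EdgeR on recovered reads also called 0 members, but the replicate block called 15 lower on the deposited scale and 4 relative to the median gene, and 1 was lower without 3IAA A. The shares of all genes called in Med5 with the block are not given. Its extremes were NOP15 at -0.33 ± 0.12 and UTP22 at 0.14 ± 0.07. In TID the medians were 0.28 and 0.25, and 61 of 62 members lay above the median of all genes. The members took 1.83% ± 0.286 (mean ± SD, n = 3) of the signal in DMSO and 2.33% ± 0.205 after 3IAA, without overlap. RRP46, UTP30 and NOP19 were called higher at 0.73 ± 0.11 (SE; limma adjusted p = 0.00665), 0.57 ± 0.11 and 0.48 ± 0.08 (1.18% of 4755 genes). UTP22 was lowest at -0.03 ± 0.10. The letters paired these libraries, and with the letter as a block 35 members were called higher, a count given without its share of all genes. With no block the count was 14 without DMSO A and 1 without 3IAA A or B or DMSO B.

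RRP46, an exosome ring subunit (YGR095C, chromosome VII, 675671 to 676342, minus strand), had the most positive relative change of the members tested in TID and in med16del. Its signal was 7.78, 9.37 and 9.75 in WT, 17.6, 14.1 and 14.7 in med15del and 29.4, 23.8 and 19.1 in med16del. Both deletions lay above WT without overlap. In TID it was 33.4, 29.8 and 27.5 in DMSO and 60.5, 46.1 and 49.6 after 3IAA. The relative change was 1.19 ± 0.09 (SE; limma adjusted p = 4.33e-06) in med16del and 0.21 ± 0.09 (SE; limma adjusted p = 0.0767) in med15del. RRP46 averaged 8.97 in WT, below the mean signal of 10 needed for a test. It was tested against WT only through the higher deletion libraries, so these 2 tests could hardly have shown a fall. The call of RRP46 in med16del is therefore no support for a rise. Both deletions share the WT libraries, so they are not independent.

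In med15del most members rose, as did most genes. On the deposited scale 59 of 62 were called higher (median 0.42), as were 87.6% of 3179 genes (median 0.52). Relative to the median gene their median was -0.09, with 3 called higher (23% of genes) and 7 lower (21.2% of genes), fewer in both directions than the background. The 3 higher were UTP30 at 0.36 ± 0.07 (SE; limma adjusted p = 0.00207), NOP19 at 0.30 ± 0.10 and RRP14 at 0.19 ± 0.06. NOP19 averaged 7.23 in WT, below the filter of 10, and was tested only through the higher med15del libraries. Its call is therefore no support for a rise. UTP30 had 17.6, 20.1 and 20.2 in WT and 35.8, 34.9 and 38.5 in med15del, without overlap. UTP21, RRP1 and NOP6 were lowest at -0.38 ± 0.10, -0.38 ± 0.12 and -0.34 ± 0.09. UTP4 and RRP5 were among those called lower, at -0.20 ± 0.07 and -0.28 ± 0.07. The counts are unstable. The lower calls numbered 28 without WT C, 2 without WT A, 3 without WT B or med15del B and 4 without med15del C, and the higher calls 1 without med15del A or C or WT A or C. TMM scaling gave 11 lower and no filter on low signal 22. In med16del 15 of 61 members were called higher (relative median 0.08; deposited 0.21; 20.7% of 2813 genes), led by RRP46, RRP14 and UTP30. The share of members called higher there is near the background, and RRP46 passed the filter only through the deletion libraries. NOP6 was lower at -0.17 ± 0.06 (SE; limma adjusted p = 0.0484) (18.8% of genes). The higher calls fell to 8 without med16del A, 9 without med16del B and 10 without WT C. NOP6 was not called without med16del B or C or WT A or B, at -0.14 to -0.17.

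Loss of Med12, of the kinase module, or of Med9 lowered many members relative to the median gene, and loss of the kinase CDK8 lowered few. In Med12 the deposited median was -0.18 (all genes 0.06), and none of 62 members (0) lay above the median of all genes. Relative to the median gene 32 were called lower (median -0.23), where 12.2% of 4481 genes were. The count was 20 without 3IAA A, 16 without 3IAA B and 21 without DMSO C. NOP15, a pre-60S factor, had 53.4, 45.3 and 45.6 in DMSO and 35.6, 35.8 and 37.7 after 3IAA, without overlap, and a relative change of -0.44 ± 0.07 (SE; limma adjusted p = 0.000349). RRP36 had the highest value at 0.01 ± 0.10, with overlapping signal of 23.2, 25.4 and 24.5 and 23.8, 24.1 and 28.5. In CDK8 the medians were -0.12 and -0.13, and UTP23, NOP53, NOP1 and RRP15 were called lower at -0.34 ± 0.09 (SE; limma adjusted p = 0.0276), -0.32 ± 0.10, -0.23 ± 0.07 and -0.20 ± 0.06 (8.6% of 4592 genes). The share of members called is at or below that background, so it is no result about the members, though 56 of 62 lay below the median of all genes. That count of calls was 0 without 3IAA C or DMSO B and 1 without 3IAA B or DMSO A, and 2 with TMM. RRP45 was highest at 0.08 ± 0.09. In Med9 41 of 61 members were called lower (deposited median -0.10, all genes 0.11; relative median -0.21), where 25.5% of 4058 genes were. RLP24 had 40.9, 39.9 and 39.8 and then 27.7, 26.9 and 30.4, and NOP56 had 67.1, 60.3 and 53.7 and then 46.7, 41.8 and 45.0, both without overlap. Their relative changes were -0.61 ± 0.06 (SE; limma adjusted p = 5.84e-08) and -0.54 ± 0.06. RRP40 and RRP7 were higher at 0.22 ± 0.08 (SE; limma adjusted p = 0.0216) and 0.12 ± 0.05 (24.4% of genes), and leaving out any 1 library left 1 or 0 such calls. RRP40 was not called without 3IAA B or C or DMSO B or C, at 0.16 to 0.21.

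In the middle and head modules the size of the effect varied. Med7 had a deposited median of 0.16 (all genes -0.16) and a relative median of 0.33, with 7 of 62 called higher (1.39% of 4027 genes). Its most positive member, UTP23 at 0.61 ± 0.23, did not pass (limma adjusted p = 0.147), and RRP43 was lowest at 0.01 ± 0.13. The count was 21 without DMSO A, 4 without 3IAA A, 2 without DMSO C, 1 without 3IAA C and 0 without 3IAA B or DMSO B. The C-terminal part of Med7 (Med7C) gave a deposited median of -0.25 (all genes -0.50) and a relative median of 0.29. On the deposited scale 41 of 61 members were called lower, as were 4311 of 4526 genes. Relative to the median gene 37 of 61 were called higher (14.8% of 4526 genes), with RRP36 at 0.56 ± 0.15 (SE; limma adjusted p = 0.0257) and RRP43 at -0.01 ± 0.06 as extremes. TMM scaling gave 21 calls, and the count was 10 without 3IAA A or DMSO A, 12 without 3IAA C and 14 without DMSO B. The call of RRP36 was lost without 3IAA A or DMSO A or B, at 0.46 to 0.60. Med7N lowered all 61 on the deposited scale (median -0.68; 99.2% of genes), and relative to the median gene 25 were higher (19.9% of 4262 genes), UTP18 most at 0.48 ± 0.06 (SE; limma adjusted p = 3.83e-06). UTP30 was lower at -0.20 ± 0.06 (SE; limma adjusted p = 0.0142) (20.3% of genes). The higher calls were 15 without 3IAA C and 16 without 3IAA B, and that of UTP30 was lost without 3IAA A or DMSO A or C, at -0.16 to -0.19.

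The libraries labelled Med31 fell by a deposited median of -0.60 (all genes -0.83), with 59 of 62 members called lower (97.3% of genes). Relative to the median gene 36 were higher (median 0.23; 17.6% of 4563 genes), and UTP9 led at 0.75 ± 0.08 (SE; limma adjusted p = 4.71e-05). RRP43 was lower at -0.29 ± 0.08 (SE; limma adjusted p = 0.0180) (20.1% of genes), a call lost without 3IAA B or DMSO B or C, at -0.23 to -0.27. Without DMSO B 19 were higher. Med19 lowered all 62 on the deposited scale (median -1.20, all genes -1.23; 97.7% of genes). In relative change 34 members lay above the median of all genes and 28 below, with a median of 0.04. The share of members called higher is near the background: 15 were higher (21.2% of 4476 genes), UTP9 most at 0.79 ± 0.07 (SE; limma adjusted p = 2.95e-06), and 7 lower (18.4% of genes), NOP6 most at -0.47 ± 0.08 (SE; limma adjusted p = 0.000662). The higher calls ran from 6 without 3IAA B to 24 without 3IAA A (8 to 10 without any of the others), and the lower ones were 3 without DMSO C and 4 without DMSO B. Med1 and Med1_5 had deposited medians of -0.29 and -0.57 (all genes -0.22 and -0.44). On that scale 38 members were called lower in Med1 (36.2% of genes) and 61 in Med1_5 (78% of genes). The count in Med1 moved with every library left out, from 4 without DMSO A to 58 without DMSO C. All genes moved too, with 430 of 4687 lower without DMSO A and 3664 of 4702 without DMSO C. In Med1_5 57 of 62 members lay below the median of all genes, and in Med1 41. The members' share of the signal in Med1_5 was 1.86% ± 0.038 (mean ± SD, n = 3) in DMSO and 1.67% ± 0.071 after 3IAA, without overlap. Relative to the median gene limma called 0 members in either. In Med1 6.4% of 4703 genes were called, 4 members were lower at an unadjusted p under 0.05 and edgeR on recovered reads called 0. The replicate block called 4, and 1 was lower without DMSO B. In Med1_5 4.35% of 4781 genes were called, 23 members were lower at an unadjusted p under 0.05, and 3 by edgeR, 9 with the block, 2 without 3IAA B and 1 without 3IAA C. UTP15 and RLP24 were the extremes of Med1 at 0.14 ± 0.08 and -0.24 ± 0.09, and NOP19 and UTP21 those of Med1_5 at 0.17 ± 0.09 and -0.28 ± 0.08.

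**Figure D4:**
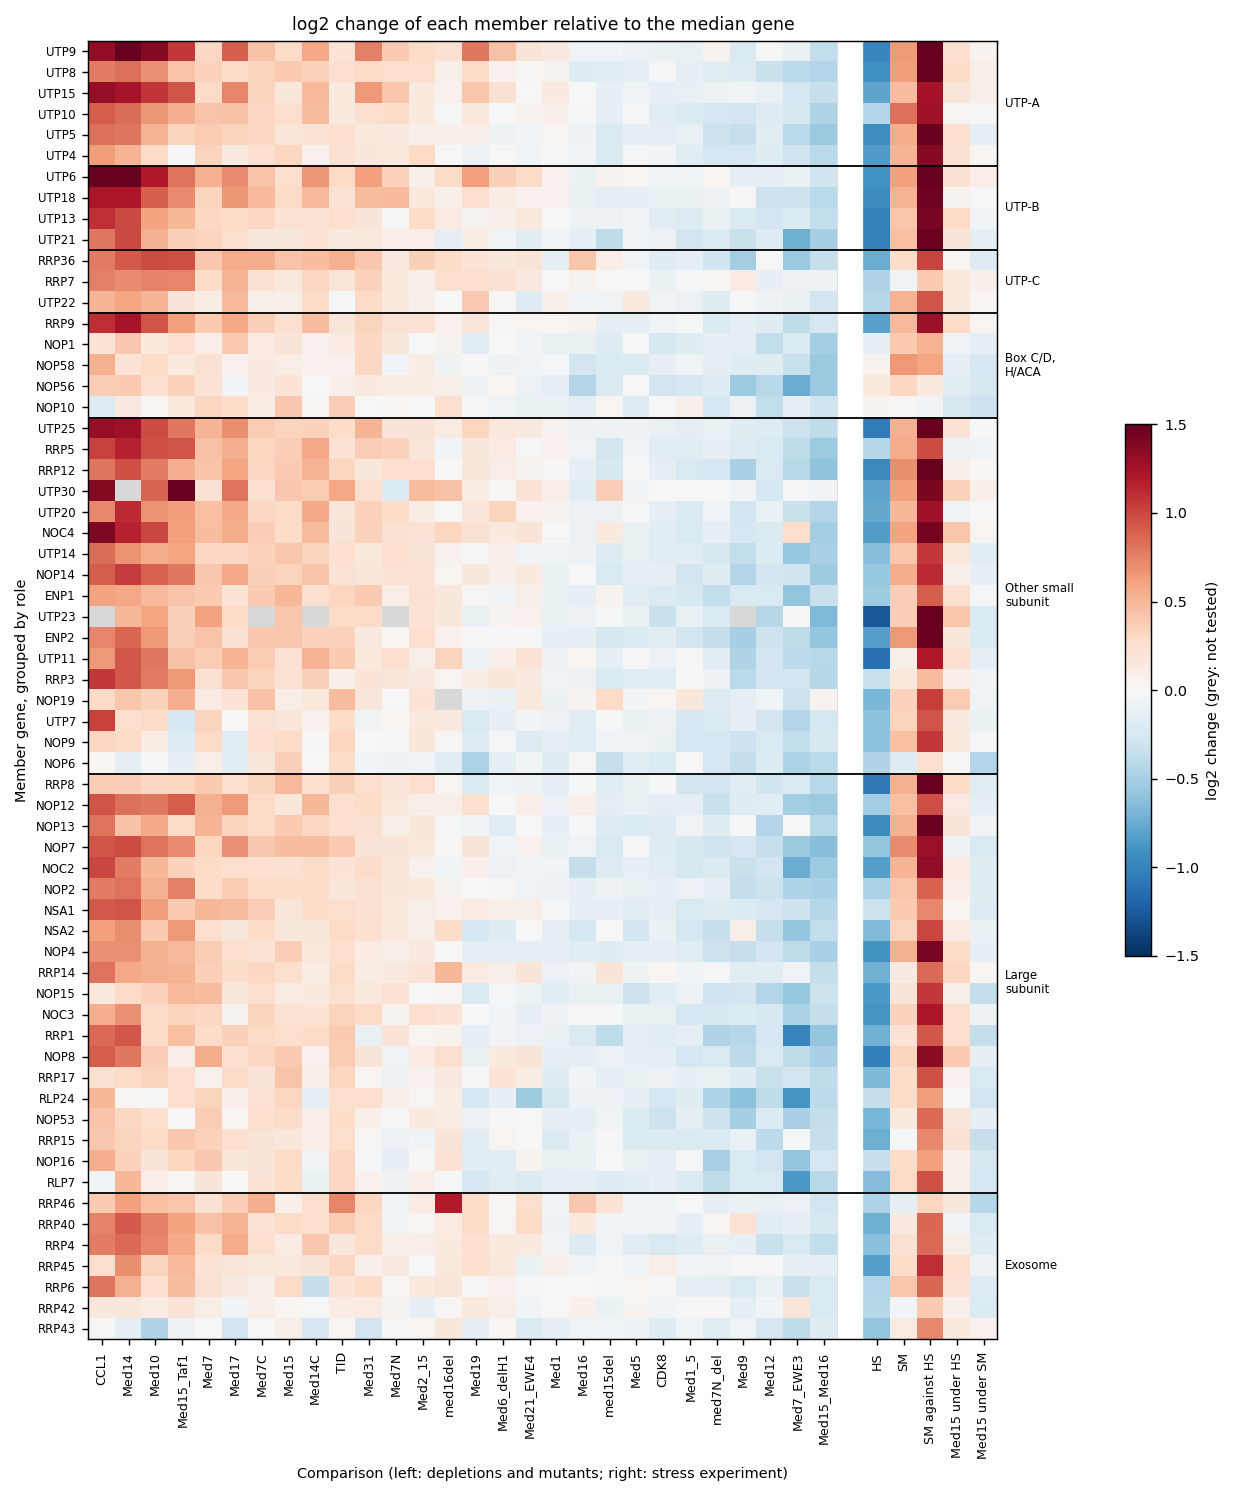
Log2 change relative to the median gene (colour) of each member (rows, grouped by role) in 28 depletion and mutant comparisons (left block, ordered by the members' median) and 5 comparisons of the stress experiment (right block, edgeR). UTP6 has the highest value in CCL1 and UTP9 in Med14 and Med10, where RRP43, in the last row, lies at or below 0.

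The 4 mutants on plasmids lowered every member on the deposited scale, as they did nearly all genes. The members' medians were -1.23 in med7N_del, -1.41 in Med7_EWE3, -1.15 in Med21_EWE4 and -1.09 in Med6_delH1, with all genes at -1.05, -1.06, -1.14 and -1.12. All 62 were called lower in each, against 99%, 97%, 98.3% and 99.8% of genes. Relative to the median gene, 41 of 62 were lower in Med7_EWE3 (median -0.33; 23.8% of 4485 genes) and 34 in med7N_del (median -0.19; 19.2% of 4385 genes). Large subunit factors led. RRP1 had 76.9, 79.8 and 69.8 in Med7_WT, 19.6 and 15.1 in Med7_EWE3 and 28.7, 25.8 and 24.3 in med7N_del, with no overlap. Its relative change was -0.99 ± 0.08 (SE; limma adjusted p = 0.000123) in Med7_EWE3 and -0.45 ± 0.06 in med7N_del. RLP24 had -0.88 ± 0.10 and -0.46 ± 0.07, and NOP16 was the lowest of med7N_del at -0.49 ± 0.08, with UTP9 the highest at 0.05 ± 0.05. NOC4 was higher in Med7_EWE3 at 0.27 ± 0.07 (SE; limma adjusted p = 0.0148) (24.1% of genes), a call lost with the replicate block, without Med7_EWE3 A and without Med7_WT C, at 0.23 to 0.24. Without Med7_EWE3 B, 22 members were lower in Med7_EWE3, and 17 were lower in med7N_del without med7N_del B and 20 without Med7_WT B. Both mutants share the Med7_WT libraries. In Med21_EWE4 (relative median 0.01) RLP24 alone was called lower at -0.53 ± 0.12 (SE; limma adjusted p = 0.0260) (7.82% of 4439 genes), and RRP40 was highest at 0.30 ± 0.11. Without Med21_EWE4 A 3 were lower, and without Med21_EWE4 B or Med21_WT A 0. The block gave 3 higher and 2 lower. In Med6_delH1 (relative median 0.03) UTP9, UTP6, UTP20, RRP7 and UTP15 were called higher at 0.44 ± 0.07 (SE; limma adjusted p = 0.00383), 0.36 ± 0.07, 0.34 ± 0.08, 0.23 ± 0.07 and 0.22 ± 0.06 (9.35% of 4554 genes), with NSA2 lowest at -0.18 ± 0.07. That count was 2 without Med6_delH1 C or Med6_WT C and 3 without Med6_delH1 A or Med6_WT B. The share of members called higher in Med6_delH1 lies near that of all genes, so it is no result about the members.

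The stress experiment used the Med15 degron strain and gave counts, so changes are relative to the typical gene by TMM scaling and a shift of all genes cannot be seen. The labels give HS, SM and no_stress with DMSO, and HS and SM with IAA, in 5 groups of 3. Under HS the members fell together: 58 of 62 were called lower by edgeR's quasi-likelihood test (median -0.70), where 37.6% of 5547 genes were. Under SM 49 were called higher (median 0.41; 26.4% of genes), and NOP6 was lower (26.2% of genes). Both share the no_stress libraries, so SM was also set against HS directly, where 60 of 62 were higher (median 1.04; 39.4% of genes). As a share of all counts the members took 1.65% ± 0.105 without stress, 0.962% ± 0.093 under HS and 2.08% ± 0.051 under SM, with no overlap between the 3 groups.

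UTP23 fell most under HS, from 89.5, 88.2 and 89.1 CPM (TMM-scaled) without stress to 38.5, 36.4 and 35.2, a change of -1.28 ± 0.11 (SE; edgeR adjusted p = 6.25e-09). UTP11 and RRP8 followed at -1.12 ± 0.09 and -1.08 ± 0.09. Most snoRNP proteins were not called. NOP56 had 228, 237 and 255 CPM without stress and 260, 285 and 258 under HS, higher in all 3 libraries but without a call (0.16 ± 0.10, edgeR adjusted p = 0.166). NOP10 and NOP58, the partner of NOP56, had 0.06 ± 0.09 and 0.05 ± 0.09, and NOP1 had -0.13 ± 0.07, also without a call. RRP9 alone of these 5 was lower (-0.81 ± 0.10). So the 4 members not called under HS were all snoRNP proteins. In a fit of the HS and no_stress libraries alone, NOP56 was called higher. UTP-A and UTP-B members had the deepest role medians, -0.89 and -0.98, and UTP-C, the box C/D and H/ACA, and the exosome members had -0.45, 0.05 and -0.60. Under SM UTP10 rose most, from 385, 344 and 371 to 653, 640 and 665 CPM (0.83 ± 0.09 (SE; edgeR adjusted p = 2.68e-07)). NOP7 and RRP12, an export factor of pre-ribosomes, rose by 0.71 ± 0.14 and 0.70 ± 0.11. NOP6 (-0.20 ± 0.08 (SE; edgeR adjusted p = 0.0449)), RRP46 (-0.14 ± 0.08) and RRP7 (-0.06 ± 0.05) were at the bottom, and the call of NOP6 was lost without any 1 of 5 of the 6 libraries compared (all but no_stress B), at -0.15 to -0.21. Here UTP-A members had the highest role median (0.59) and exosome members the lowest (0.14). In SM against HS, RRP12 and UTP23 led at 1.67 ± 0.11 and 1.65 ± 0.10, while NOP10 and NOP56 were not called, at -0.04 ± 0.09 and 0.15 ± 0.10.

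Med15 depletion under stress gave small median changes of the members. Under HS 17 of 62 were called higher with IAA (median 0.16; 15.8% of genes) and NOP10 lower (19.1% of genes). Under SM 15 were lower (median -0.13; 27.1% of genes). The share of members called under SM lies near the background, so it is no result about the members. As a share of all counts they took 2.08% ± 0.051 under SM and 2.13% ± 0.156 with IAA (mean ± SD, n = 3), and these overlap. In the same comparison the 4 MATalpha markers were all called lower (median -1.25) and 4 of the 5 genes of the other mating type higher (median 1.27). Under HS with IAA 3 of the 4 MATalpha markers were lower (median -1.22) and 1 of the 5 others higher (median 0.25). UTP23, NOC4 and NOP8 led under HS at 0.42 ± 0.11 (SE; edgeR adjusted p = 0.00655), 0.41 ± 0.10 and 0.39 ± 0.11, and UTP23 had 56.4, 50.6 and 39.3 CPM with IAA. All 3 of those libraries were above the HS libraries without IAA. NOP10, NOP56 and NOP58 were lowest at -0.24 ± 0.09 (SE; edgeR adjusted p = 0.0398), -0.17 ± 0.10 and -0.12 ± 0.09. The higher calls were 30 without IAA HS C, 10 without IAA HS A, 9 without IAA HS B and 7 without DMSO HS C, and 10 when only these 6 libraries were fitted. The call of NOP8 was lost without DMSO HS C or IAA HS B, at 0.26 to 0.34, and that of NOP10 without DMSO HS A or C or IAA HS A or C, at -0.15 to -0.25. Under SM NOP6, RRP46 and RRP1 were lowest at -0.44 ± 0.08 (SE; edgeR adjusted p = 0.000209), -0.42 ± 0.08 and -0.36 ± 0.07. NOP6 had 228, 230 and 222 CPM under SM and 185, 161 and 155 with IAA, without overlap. UTP6, UTP8 and UTP15 were highest at 0.10 ± 0.10, 0.09 ± 0.08 and 0.09 ± 0.08, without a call. The lower calls were 24 without IAA SM A, 9 without IAA SM B and 8 without IAA SM C.

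**Figure D5:**
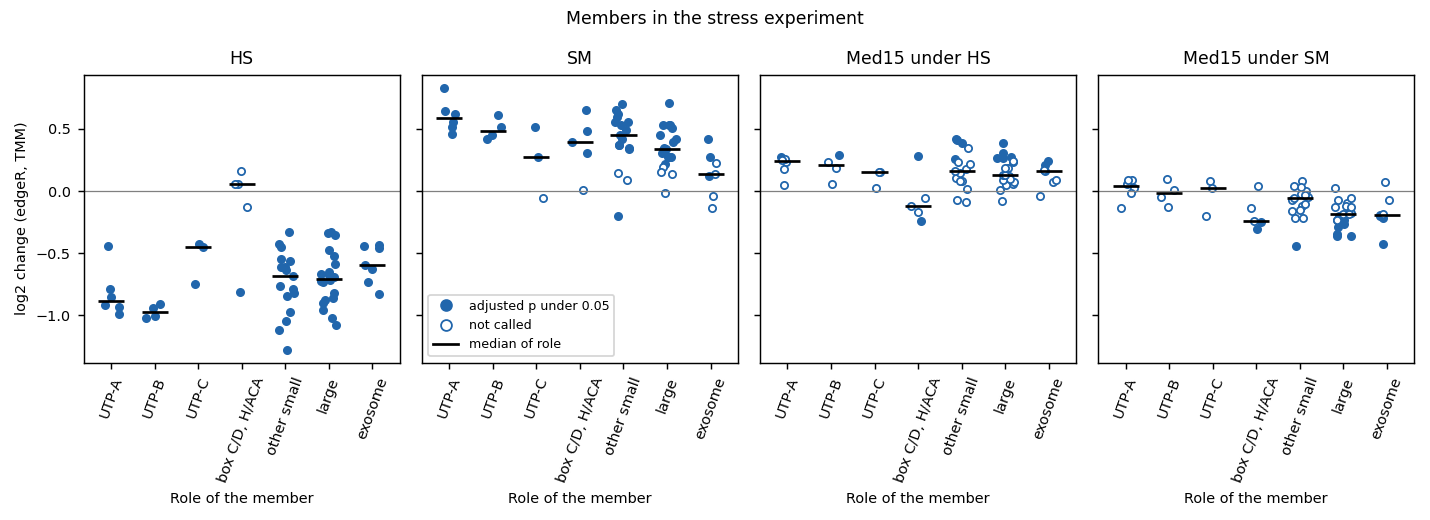
Log2 change of each member (y axis, edgeR with TMM scaling) by role (x axis) under HS, under SM, and after Med15 depletion under either, with filled points for an adjusted p under 0.05, open points for no call and lines for the role median. Under HS the box C/D and H/ACA members lie near 0 (median 0.05) apart from RRP9 at -0.81, while UTP-B members lie near -0.98.

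Other biogenesis genes had medians of the same sign as the members in the 8 comparisons given. Of 83 other factors (such as PWP2, NSR1 and NOG1), those called relative to the median gene were 73 of 79 higher and 0 lower in CCL1 (median 0.74), 75 of 81 higher and 0 lower in Med14 (0.71), 11 of 83 higher and 1 lower in Med15 (0.29), 0 of 81 higher and 55 lower in Med12 (-0.26), 0 of 83 higher and 78 lower in Med15_Med16 (-0.47) and 1 of 79 higher and 63 lower in Med9 (-0.29). Under HS they were 1 of 83 higher and 78 lower (median -0.67), and under SM 71 of 83 higher and 1 lower (median 0.44). The 10 RNA polymerase I genes had medians of 0.59 in CCL1, 0.76 in Med14, -0.33 in Med12, -0.50 in Med15_Med16, -0.34 under HS and 0.40 under SM. The 9 regulators, such as SFP1 and IFH1, were split, with 4 of 9 higher and 3 lower in CCL1, and 3 of 9 higher and 3 lower in Med14. All genes were split too, with 1426 of 3927 higher and 1449 lower in CCL1, and 1042 of 3543 higher and 958 lower in Med14. The split is thus not particular to the regulators. The 4 MATalpha markers were often lower where tested, with 3 of 3 tested called lower in Med15 (relative median -0.75) and 4 of 4 in med15del (-1.87), while no member was called lower in Med15 and 7 were in med15del. They were also lower where most members were: 4 of 4 in Med15_Med16 (-1.25) and 4 of 4 under HS (-1.79). In TID and Med14, where the members' relative median was above 0, 4 of 4 (-1.23) and 3 of 3 tested (-2.56) were lower. Their part in the members' results was not tested.

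Over the 22 degron comparisons the members ranked from RRP36, of UTP-C, with a median relative change of 0.40, through UTP6 (0.33), UTP25 (0.30), UTP9 (0.29) and RRP5 (0.27), down to UTP7 (-0.03), NOP9 (-0.05), RLP7 (-0.06), NOP6 (-0.07) and RRP43 (-0.07). UTP25 was called higher in 11 of the 22 and lower in 2, and UTP6 in 10 and 1. RRP43 was called lower in 6 and higher in 0, and its values ran from -0.45 to 0.08. UTP6 ranged from -0.30 to 1.74 and RRP5 from -0.54 to 1.15, so the same members were above the median gene in some depletions and below it in others. By promoter, the 38 members with both cores had a median relative change of 0.80 in Med14 and 0.80 in CCL1 (37 tested there), and the 13 with PAC only had 0.68 and 0.73. The 8 with RRPE only, of which 7 were tested in Med14, had 0.54 and 0.78, and the 3 with neither had 0.61 and 0.39. Under HS these medians were -0.72, -0.72, -0.57 and -0.46, and under SM 0.45, 0.34, 0.41 and 0.28. Under HS the changes of the 38 members with both cores ran from -1.28 to 0.16. These groups were not compared by a test.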

How the data were processed

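Newly made RNA was measured in 177 libraries of 60 groups, grown at 30 °C per the labels' protocols. Bowtie2 and HTSeq, and the builds sacCer3 and ASM294v2, are named in the submitters' processing notes, with no role stated for each. The versions, any use of strand and how the values were scaled are not given in the sources used here. All values stand in a column headed signal. In 162 libraries the deposited signal has 2 decimals, and its scale differs by library on a basis that is not stated. In the 15 stress libraries the deposited values are whole numbers and were taken, from the values, as counts. Whole reads could be recovered from the deposited signal of 106 libraries, where at least 96.5% of low values were within 0.1 of a whole step. Their depth was 2119071 to 10714175 reads, and 4384651 to 10032201 counts in the stress libraries. No 2 libraries held identical values (0 pairs).

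Each signal comparison was fitted alone with limma 3.58.1 (R 4.3.3) on log2(signal + 1) with a mean-variance trend, for genes whose mean signal reached 10, on the deposited scale and after subtracting each library's median over the genes tested. Such changes understate those of low genes. Counts were fitted together with edgeR 4.0.16 (quasi-likelihood F test, TMM, filterByExpr), with the SE taken from the F statistic. Benjamini-Hochberg adjustment covered all genes tested in a comparison, and an adjusted p under 0.05 was a call. Both fits were tested on simulated data. The alternatives were pseudocounts of 0.1 and 5, no filter, TMM scaling, the replicate letter as a block, edgeR on recovered reads (11 comparisons, 66 to 2419 genes called), DESeq2 1.42.0, and leaving out each library. Counts of members under an alternative show how the calls moved, and most are given without the share of all genes.

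The letters paired libraries (every same-letter pair of deviations correlated above 0.1 over 3 pairs) in CCL1, Med10, Med14, Med14C, Med15, Med15_Med16, Med15_Taf1, Med16, Med17, Med2_15, Med5, Med7C, TID and Med15 depletion under HS and SM; the pairing comes from the data, not the labels. Named members are the 3 most positive and 3 most negative in each main comparison, the 1 at each end in the others, the 5 at each end over the degron comparisons, and 13 fixed examples, 1 or more per role. Members named for a count of 5 or fewer, RRP9, NOP58 and RRP7 were chosen after their values were seen. The members and lists were chosen with earlier results of these data known. No member overlaps another gene of the RefSeq annotation (0 of 62). Promoter sequence and positions come from the RefSeq R64 genome, the build named sacCer3. Python 3.11.15 and matplotlib 3.10.9 made the figures.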

Additional observations from a re-analysis of the deposited data

Results flagged for a closer look

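The change of some members differed between 2 depletions by a direct test of the difference, with limma relative to the median gene. Of the 62 members, 32 changed more in the positive direction in Med14 than in Med15, led by UTP9 with a difference of 1.32 on the log2 scale, where 16.2% of all genes tested were called higher. In Med15_Taf1 against Med15, 20 members were higher, with UTP30 at 1.17, and 2 were lower, with NOP9 at -0.45. Of all genes 27.1% were higher and 19.6% lower there, so the share of members called higher is near the background. These 2 strains also differ in the RPB3-3xFlag allele. In CCL1 against Med14, 1 member was higher, UTP7 at 0.78, and 3 were lower, with RLP7 at -0.53, against 13.7% of genes higher and 11.6% lower. No group had the 4 libraries needed to look for single outlying values.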

How the results depend on the processing

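On the relative scale a pseudocount of 5 lowered the members' median to 0.56 in CCL1, 0.55 in Med14, 0.35 in Med10, 0.33 in Med15_Taf1 and 0.15 in Med14C, and turned UTP22 in Med15_Taf1 to -0.028 on the log2 scale. In CCL1 1 member was called lower with TMM scaling and with either other pseudocount, and 0 to 1 when a library was left out. In med15del the lower calls were 11 with TMM, 4 with a pseudocount of 5 and 22 with no filter (which left 1 higher), and ranged from 2 to 28 when a library was left out (higher calls 1 to 3). Leaving out 1 library gave 0 to 28 higher calls in Med15 on the deposited scale and 2 to 11 on the relative scale, 1 to 2 lower in Med15_Taf1, 1 to 3 lower in Med17, 0 to 2 lower in SM, 7 to 30 higher and 0 to 1 lower in Med15 depletion under HS, and 8 to 24 lower in Med15 depletion under SM. Fitting only 2 groups gave 1 higher in HS, and 10 higher and 0 lower in Med15 depletion under HS. No filter on low counts left 0 lower in SM. On the deposited scale the median difference was -1.53 for Med14 minus Med15 (UTP9 -0.69), -0.18 for CCL1 minus Med14 and -2.40 for Med15_Taf1 minus Med15 (UTP30 -1.46), a scale that also holds the change of the median gene. With the replicate block, where the letters pair the libraries, 42 members (484 of 4088 genes) were called higher in Med15 and 2 members lower in Med17. Where they do not, the block gave 1 higher and 4 lower in med15del, 0 higher in Med7, 12 lower in CDK8 and 19 lower in med7N_del, as hints only. No filter left 1 higher in Med7 and 8 in med16del. Over all alternatives other than leaving out a library, 415 of 476 counts of called members stayed within 1.5 times and 174 of 182 medians within the spread. Leaving out 1 library kept fewer counts, 474 of 627, within 1.5 times, and 231 of 231 medians within the spread. Precision is limited by 2 or 3 libraries per group and, in 56 libraries, by unknown depth.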
